A study of Homo sapiens with 56 samples.

Results

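PEO4 cells treated for 3 h with 4-hydroxytamoxifen were compared with PEO4 cells treated for 3 h with fulvestrant, without estradiol in either group. The comparison used 8 of the 56 arrays of the series, 4 titled with the abbreviation Tam and 4 titled ICI, chosen by their titles and not by any measured value. PEO4 is an established line of high-grade serous ovarian cancer, and PEO1, the other line of the series, was established from the same patient. The question was where an estrogen receptor antagonist with partial agonist activity and one without it differ in their early transcript response.

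All groups were deprived of steroid hormones for 3 days in charcoal-stripped serum and medium without phenol red, so that the 2 drug groups and their vehicle group share a hormone-deprived background. The PEO4 arrays carry only the abbreviation Tam, which was read as 4-hydroxytamoxifen from the series' design text, as were the doses. 4-hydroxytamoxifen (called 4OHT here) was given at 1 µM, and fulvestrant (labelled ICI and called ICI here) at 1 µM. The vehicle group also lasted 3 h, and it holds 4 arrays. The same drug contrast was measured on 8 further PEO4 arrays in which both drugs were given with 1 nM estradiol (E2), and on 8 PEO1 arrays without E2. A group at 0 h and a group with E2 alone complete each line. The labels do not say that replicate arrays came from separate cultures, so p-values measure the spread between these arrays, which may be technical. Each line is a single cell line, and these arrays measure RNA only.

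Estrogen receptor alpha, encoded by ESR1, is a ligand-activated transcription factor. 4OHT is the active metabolite of tamoxifen, a triphenylethylene that competes with estradiol for the receptor and acts as an agonist or antagonist depending on the tissue. Fulvestrant is a steroid built on estradiol and carries an extended side chain; it is known to block the receptor and to promote loss of receptor protein. Immediate early genes are switched on within minutes to hours of a growth factor or stress signal without new protein synthesis, and many of them encode transcription factors of the FOS, EGR, NR4A and KLF families or inhibitors that limit MAP kinase signalling.

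With 4OHT, transcripts of FOS, FOSB and FOSL1, of the MAP kinase phosphatase genes DUSP4, DUSP5 and DUSP6, of the chemokines CXCL2 and CXCL8 and of the growth factors EREG and HBEGF were higher than with ICI, by up to 3.21-fold for FOSB. Those of TMEM100, TXNIP, FGFR2 and CYP1A1 were lower, and ESR1 was lower by a smaller amount. Of 11963 genes tested, 279 were called (limma, Benjamini-Hochberg adjusted p under 0.05), which is 2.33% of the genes: 150 (1.25%) were higher with 4OHT and 129 (1.08%) were lower. Only 9 of the called genes differed by 2-fold or more. The median difference over all genes was -0.03 on the log2 scale, and 83.3% of genes (9971) had a 95% interval that lay wholly within a 1.25-fold difference either way. This is 1 pair of compounds, compared at 1 matched dose and time.

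One array of the ICI group stood apart. The array's control probe sets for ACTB, which lie at the 3′ and the 5′ end of the transcript, differed by 3.41 on the log2 scale on ICI replicate 1, against 0.52, 0.92 and 0.64 on the other ICI arrays and 0.65, 0.51, 0.49 and 0.47 on the 4OHT arrays. For GAPDH the same difference was 1.74 on ICI replicate 1 and 0.06 to 0.07 on the other ICI arrays. The mean ACTB difference of 4OHT against ICI was -0.84 (exact permutation test, two-sided, p = 0.114, where the smallest p for 4 against 4 arrays is 0.0286). Without ICI replicate 1 it was -0.16 (exact permutation p = 0.229). The part of this array in each result was measured by leaving it out. A second PEO4 array, 0 h replicate 4, was also high, at 2.28 for ACTB and 0.86 for GAPDH. It is in neither drug group but enters the shared estimate of the spread. With it and ICI replicate 1 left out together, 266 genes were called, 174 higher and 92 lower.

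Without ICI replicate 1, 200 genes were called (1.67%), 135 higher (1.13%) and 65 lower (0.543%). Of the 150 genes called higher over all arrays, 108 were called again (72%), and of the 129 called lower, 57 (44.2%). None of the called genes was called in the opposite direction. Single arrays of good quality also moved the count by more than 1.5 times: it was 163 without 4OHT replicate 1, 169 without 4OHT replicate 2 and 552 without ICI replicate 4, where 214 were higher and 338 lower. The balance of 150 higher to 129 lower also moved with the model: it was 206 to 80 with the ACTB difference defined above as a covariate, 58 to 24 with the compared groups fitted alone and 1000 to 1367 with array weights. Of the 279 calls, 126 held when each of the 8 arrays was left out in turn, 79 higher and 47 lower. Differences below are given over all 8 arrays. Where leaving out ICI replicate 1 ended a call, the difference without it, or its range with single arrays left out, is given.

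Most markers of the labelled cell type were high. All 15 ovarian carcinoma epithelial markers fixed for the line, such as PAX8, WT1, EPCAM and the keratins, were measured, with a mean level per array of 11.12 to 11.22 with 4OHT and 11.07 to 11.2 with ICI (log2). SOX17 was the lowest of them, at 4.55, which is the 5.2nd percentile of all genes. CLDN3, CLDN4 and FOLR1 lay at the 58.8th, 60.9th and 72nd percentile. None of the 15 was called. Fibroblast and mesothelial markers averaged 6.46 to 6.57 with 4OHT and 6.52 to 6.66 with ICI, and leukocyte markers 5.59 to 5.86 and 5.68 to 5.78. SERPINA1, a marker on the hepatocyte list, was high at 10.74, the 81.2nd percentile. Of the 36 markers of other cell types that were measured, LYZ alone was called, at -0.26 (adjusted p 0.0475), and its call was lost without ICI replicates 1 (-0.27), 3 or 4 or 4OHT replicates 1, 2 or 3.

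**Figure D1:**
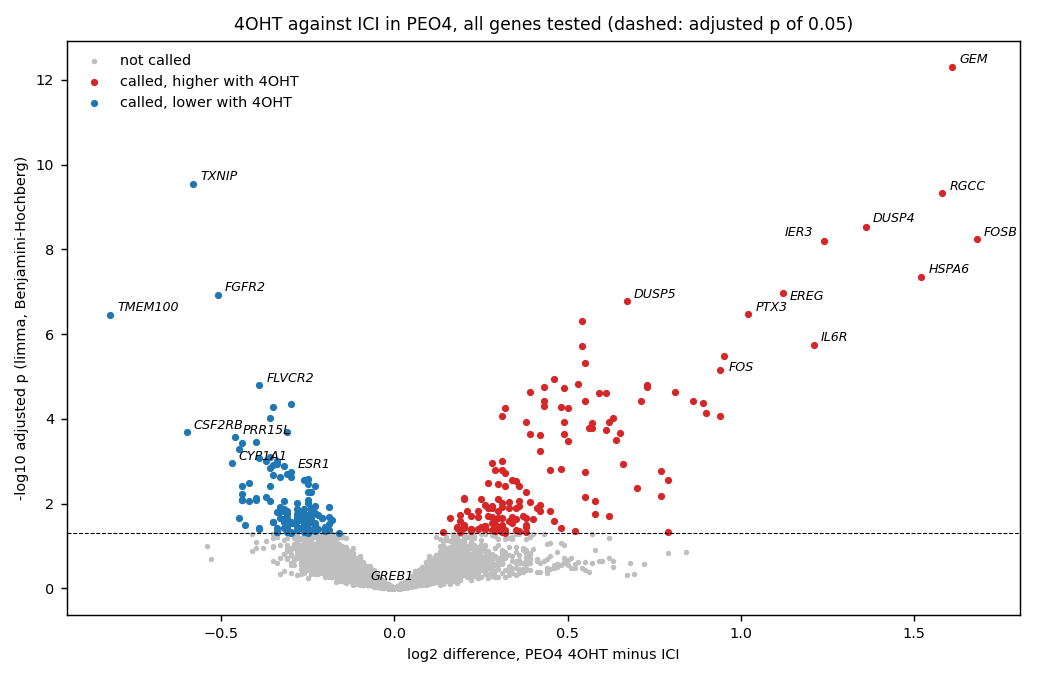
Each point is 1 of 11963 genes, with the log2 difference of PEO4 4OHT minus ICI on the x axis and the negative log10 of limma's adjusted p on the y axis (log scale). Red points are the 150 genes called higher and blue points the 129 called lower; the 4 genes farthest to the right are FOSB, GEM, RGCC and HSPA6, and TMEM100 is farthest to the left at -0.82.

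The promoters of 4 of the 15 largest increases are shown. They were picked by hand as examples that carry a site named in the groups below, not by rank. PTX3, with NF-kB matches at -97 and -96, and IL6R, with an AP-1 site at 38, are not shown. GEM, DUSP4, IER3, FOSL1 and SNAI2 had no promoter in the table. RGCC, EREG, BCL2A1 and CLDN1 had a promoter without any of the motifs searched. Each run is the 250 bases before the RefSeq transcription start in GRCh38.p14, on the gene's own strand, with the named site in capitals. In FOSB (chr19:45467746-45467995, plus strand) and FOS (chr14:75278578-75278827, plus strand) the capitals mark the core of a cAMP response element, TGACGT, which begins at position -60 from the FOSB start and -64 from the FOS start. In CXCL2 (chr4:74099196-74099445, minus strand) they mark a single stretch that matches the NF-kB site on both strands, with the matches beginning at positions -78 and -77. In HSPA6 (chr1:161524290-161524539, plus strand) they mark a heat shock element that begins at position -74. Other sites of the motifs counted below are left in lower case. CXCL2 also holds a cAMP response element core at -165, on the other strand (ACGTCA), and HSPA6 holds AP-1 sites at -244 and -139.
FOSB: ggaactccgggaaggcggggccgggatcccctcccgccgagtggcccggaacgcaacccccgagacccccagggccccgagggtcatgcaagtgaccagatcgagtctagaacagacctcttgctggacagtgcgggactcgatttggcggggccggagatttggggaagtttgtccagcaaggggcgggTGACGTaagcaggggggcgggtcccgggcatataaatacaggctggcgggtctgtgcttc
FOS: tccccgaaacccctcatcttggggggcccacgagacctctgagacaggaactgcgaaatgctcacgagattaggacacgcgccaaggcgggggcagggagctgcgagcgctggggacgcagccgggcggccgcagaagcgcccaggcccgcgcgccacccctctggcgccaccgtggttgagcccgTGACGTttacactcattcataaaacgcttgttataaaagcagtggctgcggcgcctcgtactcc
CXCL2: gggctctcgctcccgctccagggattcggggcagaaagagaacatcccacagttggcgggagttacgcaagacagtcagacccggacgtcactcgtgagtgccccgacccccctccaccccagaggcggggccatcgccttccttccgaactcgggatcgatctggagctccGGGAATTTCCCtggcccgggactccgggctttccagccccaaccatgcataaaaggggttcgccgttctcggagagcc
HSPA6: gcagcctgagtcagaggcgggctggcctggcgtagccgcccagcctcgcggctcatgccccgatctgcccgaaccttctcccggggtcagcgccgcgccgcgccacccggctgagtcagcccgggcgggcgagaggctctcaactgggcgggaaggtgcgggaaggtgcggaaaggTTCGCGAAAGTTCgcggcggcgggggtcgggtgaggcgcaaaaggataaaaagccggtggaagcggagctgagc

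The motifs were counted on both strands of windows from 250 bases before to 50 bases after each start. Among the called genes, 218 of 279 had a promoter in the table. The core TGACGT was present in 21.4% of the promoters of genes higher with 4OHT (24 of 112), in 11.3% of those lower (12 of 106), in 10.9% of the 9562 tested genes with a promoter and in 8.32% of all 27305 promoters. The full palindrome TGACGTCA, which contains the core, was in 3.57%, 3.77%, 3.06% and 1.98%. The AP-1 site TGANTCA was in 10.7% of promoters of the higher genes, 9.43% of the lower, 5.43% of the tested and 7.76% of all. NF-kB sites were in 9.82%, 15.1%, 6.57% and 5.72%, and the heat shock element in 0.893%, 0, 0.376% and 0.487%. The palindromic estrogen response element was in no promoter of a called gene, in 0.0209% of the tested and in 0.0659% of all. In the same order, the CArG box was in 1.79%, 2.83%, 1.28% and 1.29%, and the E-box CACGTG in 11.6%, 6.6%, 9.51% and 7.43%. The dioxin response element core TNGCGTG was in 4.46%, 7.55%, 6.85% and 5.51%. TGACGT was singled out among all these motifs after the values were seen, and these shares are descriptions without a test.

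Immediate early genes, most of them transcription factors, had the most calls of the lists. Of 28 measured members of the list, 17 were called higher and 0 lower, against 1.25% of all genes called higher. The median difference of the list was 0.36 and that of all genes -0.03. All lists were chosen with earlier results of these data known, so such an excess is not independent evidence. Lists also share genes: IER3 is on the immediate early and MAPK feedback lists, and FOSL1 on the immediate early and YAP target lists. Without ICI replicate 1 the count was 15, and over the leave-outs of single arrays it lay between 14 and 17. FOSB, an AP-1 subunit, was at 8.76, 8.98, 9.20 and 9.16 on the 4OHT arrays and at 7.73, 7.30, 7.18 and 7.15 on the ICI arrays (log2 levels). The 2 groups did not overlap, and the highest ICI array was the one of poor quality. Over all genes, 7.61% had groups without overlap, 3.26% with 4OHT above and 4.35% with it below. Without ICI replicate 1 these shares were 10.6%, 5.34% and 5.3%. Genes named for a large difference tend not to overlap, so a lack of overlap is no separate support for them. The FOSB difference was 1.68 ± 0.14 (SE, 4 arrays each, adjusted p 5.72e-09), and 1.81 without ICI replicate 1. FOS, its relative, was at 8.91, 8.57, 8.69 and 8.61 with 4OHT and 7.41, 7.78, 7.86 and 7.96 with ICI, again without overlap and with ICI replicate 1 as the lowest array. It differed by 0.95 ± 0.11 (adjusted p 3.31e-06). FOSL1, the FOS-related protein FRA1, was at 11.21, 11.13, 11 and 11.05 with 4OHT and at 10.69, 10.06, 10.03 and 9.84 with ICI. Its difference was 0.94 ± 0.12 (adjusted p 7.12e-06) and rose to 1.12 without ICI replicate 1, whose level lay closest to the 4OHT arrays.

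The JUN partners of the FOS proteins did not pass the test. JUN differed by -0.12 (95% interval -0.22 to -0.02, adjusted p 0.218), JUNB by 0.06 (-0.06 to 0.18) and JUND by 0.08 (-0.1 to 0.25). FOSL2 was at -0.12 (-0.26 to 0.01). Within the AP-1 family FOS, FOSB and FOSL1 were called, while the intervals of the JUN genes reached no further than a log2 difference of 0.25.

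Further members of the list were ATF3, the EGR and NR4A factors and GEM. The stress-responsive factor ATF3 was at 8.35, 8.23, 8.36 and 8.13 with 4OHT and 7.76, 7.63, 7.73 and 7.69 with ICI, a difference of 0.56 ± 0.09 (adjusted p 0.000161). The zinc finger factors EGR1 and EGR3 differed by 0.65 ± 0.10 and 0.73 ± 0.09 (adjusted p 0.00022 and 1.6e-05). EGR3 stayed between 5.39 and 5.67 with 4OHT and between 4.72 and 4.85 with ICI. These levels are low on the scale of the array, where a mean of 4.71 lies at the 5.9th percentile of all genes and 5.65 at the 13th. Among levels given below, those of RGCC, IL6R, BCL2A1 and SNAI2 with ICI and of TMEM100 with 4OHT lay in or near this low range. The orphan receptor NR4A3 was higher by 0.79 ± 0.15 (adjusted p 0.00272), with 4OHT arrays at 7.9 to 8.66 and ICI arrays at 7.06 to 7.73, while NR4A1 (0.15, adjusted p 0.213) and NR4A2 (0.32, adjusted p 0.175) did not pass the test. GEM, a small GTPase that restrains calcium channels, had the smallest adjusted p of all genes. It was at 10.19, 9.92, 9.98 and 10.08 with 4OHT and 8.26, 8.49, 8.51 and 8.44 with ICI, a 3.06-fold difference (1.61 ± 0.08, adjusted p 4.92e-13). Its lowest 4OHT array lay above its highest ICI array, as for 3.26% of all genes, and ICI replicate 1 was the lowest of its group.

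MYC, a growth-promoting transcription factor and a classical estrogen target, was at 11.80, 11.70, 11.71 and 11.71 with 4OHT and 10.54, 11.10, 11.25 and 11.20 with ICI. The groups did not overlap (4OHT lay above in this way for 3.26% of all genes), and ICI replicate 1 was again the lowest array. The difference fell from 0.71 ± 0.10 (adjusted p 3.83e-05) to 0.55 without it (adjusted p 6.56e-06). Of 18 measured Krüppel-like and C/EBP factors, 4 were called higher and 0 lower (1.25% of all genes called higher). KLF6 differed by 0.61 ± 0.08 and KLF4 by 0.39 ± 0.05, and both kept their calls without each array. Other KLF6 probe sets, at 1.16 ± 0.35 and 0.18 ± 0.07, were not called, nor was another KLF4 probe set at 0.65 ± 0.19. KLF2 (0.33 ± 0.08) lost its call without 4OHT replicates 1, 2 or 3 or ICI replicates 2 or 3. KLF10 (0.31 ± 0.08, and 0.29 without ICI replicate 1) lost it without 4OHT replicates 1, 2 or 3 or ICI replicates 1, 2 or 3, so that the list's count was 2 without 4OHT replicates 1, 2 or 3 or ICI replicates 2 or 3.

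**Figure D2:**
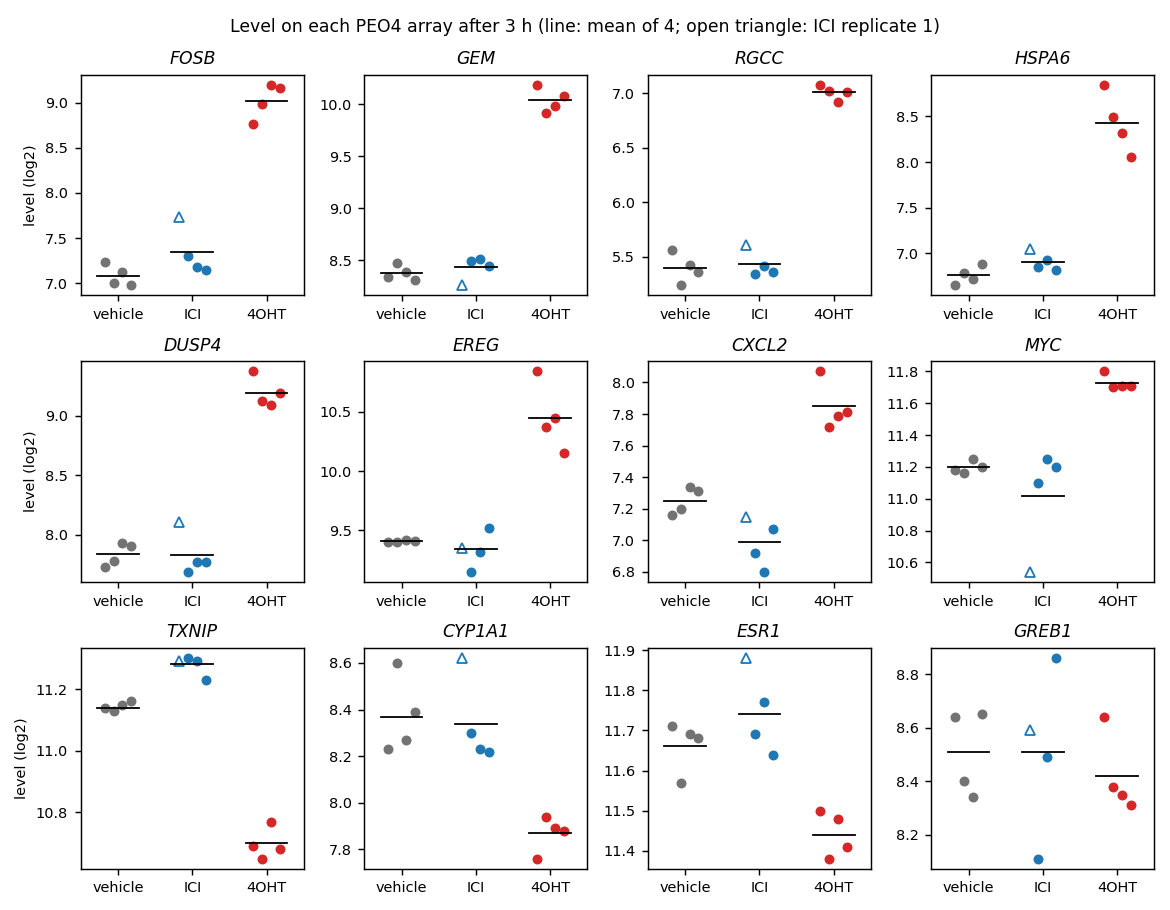
Log2 level of 12 genes on each PEO4 array after 3 h with vehicle, ICI or 4OHT; points are single arrays, lines the mean of 4, and the open triangle is ICI replicate 1, the array with poor RNA quality. The y axes differ between panels and do not start at 0. In the panels of FOSB, GEM, RGCC, HSPA6 and DUSP4 the 4OHT arrays lie above all vehicle and ICI arrays, and in those of TXNIP, CYP1A1 and ESR1 they lie below; for GREB1 the 3 groups overlap.

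Negative feedback regulators of MAP kinase signalling were higher with 4OHT. Of 15 measured members, 8 were called higher and 0 lower (1.25% of all genes called higher), with a median of 0.26, and 7 were called without ICI replicate 1. DUSP4, a nuclear phosphatase that inactivates MAP kinases, was at 9.37, 9.12, 9.09 and 9.19 with 4OHT and 8.11, 7.69, 7.77 and 7.77 with ICI. The difference was 1.36 ± 0.11 (2.56-fold, adjusted p 3.04e-09). DUSP5, a nuclear phosphatase specific for ERK, was at 11.48, 11.29, 11.33 and 11.38 with 4OHT and 10.68, 10.68, 10.80 and 10.65 with ICI (0.67 ± 0.07, adjusted p 1.68e-07). DUSP6, its cytoplasmic counterpart, differed by 0.49 ± 0.06 (adjusted p 1.91e-05). None of these 3 phosphatases overlapped between the groups, and 4OHT lay above in this way for 3.26% of all genes.

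IER3, an early response gene that affects ERK signalling and survival, was at 10.28, 10.13, 10.12 and 10.19 with 4OHT and 9.26, 8.98, 8.84 and 8.66 with ICI (1.24 ± 0.10, adjusted p 6.5e-09). The sprouty and ETV members of the list that did not pass the test had small estimates. SPRY1 was at 0.14 and SPRY2 at 0.19 (adjusted p 0.282 and 0.146), and the ETS factors ETV4 and ETV5, transcriptional targets of ERK signalling, were at 0.04 and -0.05 with intervals from -0.09 to 0.17 and from -0.19 to 0.1. RGCC, a regulator of the cell cycle, was outside the lists. It was at 7.08, 7.02, 6.92 and 7.01 with 4OHT and 5.61, 5.34, 5.41 and 5.36 with ICI, a 2.99-fold difference (1.58 ± 0.11, adjusted p 4.71e-10).

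Of 22 measured NF-kB targets and cytokines, 8 were called higher and 0 lower (1.25% of all genes called higher), with a median of 0.29. The count was also 8 without ICI replicate 1, and it was 5 without 4OHT replicate 4. The neutrophil chemoattractant CXCL2 was at 8.07, 7.72, 7.79 and 7.81 with 4OHT and 7.15, 6.92, 6.80 and 7.07 with ICI (0.86 ± 0.12, adjusted p 3.83e-05). CXCL8, which encodes interleukin 8, differed by 0.77 ± 0.16 (adjusted p 0.00658), with 4OHT arrays at 7.23 to 8.01 and ICI arrays at 6.50 to 7.10. TNFAIP3, the inhibitor of NF-kB signalling called A20, was at 11.29, 11.24, 11.26 and 11.42 with 4OHT and 10.81, 10.80, 10.81 and 10.62 with ICI (0.54 ± 0.06, adjusted p 1.95e-06). The chemokine CCL20 was at 0.62 ± 0.15 (adjusted p 0.0195) and lost its call without 4OHT replicates 1 or 4.

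The classical inflammatory cytokines gave no call. TNF was at 0.06 (95% interval -0.08 to 0.2), IL1B at 0.02 (-0.15 to 0.19) and IL6 at 0.25 (0.09 to 0.41, adjusted p 0.0942). IL6R, the receptor subunit that binds interleukin 6, was higher by 1.21 ± 0.14 (adjusted p 1.79e-06), with arrays at 7.15, 7.51, 6.99 and 6.88 with 4OHT and 5.75, 5.75, 5.98 and 6.17 with ICI. A second IL6R probe set was at 0.07 ± 0.06 (adjusted p 0.611). PTX3, a secreted pattern recognition protein, was higher by 1.02 ± 0.10 (adjusted p 3.39e-07).

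Of 14 measured BCL2 family genes, 3 were called higher, against 1.25% of all genes. BCL2A1, an anti-apoptotic member that NF-kB induces, was at 7.27, 6.77, 6.83 and 6.66 with 4OHT and 5.85, 5.90, 5.98 and 6.05 with ICI (0.94 ± 0.14, adjusted p 8.63e-05). MCL1 and PMAIP1, an anti-apoptotic member and the pro-apoptotic BH3-only protein NOXA, were at 0.29 ± 0.08 and 0.34 ± 0.09 (adjusted p 0.0435 and 0.0293). Both lost their calls without ICI replicate 1 and without any single 4OHT array or ICI replicate 2, and the count of the list was then 1; without ICI replicate 1 they were at 0.22 and 0.28. The 4 other MCL1 probe sets lay between -0.19 and 0.38 and were not called. MCL1 also lost its call without ICI replicate 3. CDKN1A, the cell cycle inhibitor p21, led the list of p53 targets, of which 3 of 16 were called higher; it differed by 0.55 ± 0.10 (adjusted p 0.00179). The p53 list fell to 1 without 4OHT replicates 1, 2 or 3 or ICI replicate 2, and without ICI replicate 4 it had 2 genes called lower.

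Of 6 ligands of the ERBB receptor family that were measured, 3 were called higher, and of 4 receptors 1 was called lower. Over all genes, 1.25% were called higher and 1.08% lower. EREG, which encodes epiregulin, was at 10.84, 10.37, 10.45 and 10.15 with 4OHT and 9.35, 9.15, 9.32 and 9.52 with ICI (1.12 ± 0.11, adjusted p 1.08e-07). HBEGF, heparin-binding EGF-like growth factor, was at 11.62, 11.38, 11.45 and 11.40 with 4OHT and 11.12, 10.86, 10.82 and 10.71 with ICI (0.59 ± 0.08, adjusted p 2.4e-05). Neither gene overlapped between the groups, and 4OHT lay above in this way for 3.26% of all genes. One other HBEGF probe set was called at 0.69 and another was at -0.05 (adjusted p 0.789). The ligands EGF (-0.06), BTC (0.02) and NRG1 (-0.04) did not pass the test. The third ligand called, TGFA, was smaller at 0.19 ± 0.04 (adjusted p 0.0183), and its call was lost without ICI replicate 1 (0.17) or 4OHT replicates 1 or 2. ERBB3, a receptor for neuregulins, was lower by 0.25 on the log2 scale (-0.25 ± 0.05, adjusted p 0.00533). For EGFR (0.17, 95% interval 0 to 0.34) and ERBB2 (-0.09, -0.22 to 0.05) the test was not passed. In all, 3 of 10 measured members were called higher and 1 lower.

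HSPA6, an HSP70 isoform that is nearly silent in unstressed cells, was at 8.85, 8.49, 8.32 and 8.05 with 4OHT and 7.04, 6.85, 6.92 and 6.81 with ICI. Its 2.87-fold difference (1.52 ± 0.14, adjusted p 4.44e-08) was not shared by most of the heat shock list. In it 2 of 15 measured members were called higher, against 1.25% of all genes. A second HSPA6 probe set gave 0.53 ± 0.07 (adjusted p 4.18e-05). The other member called was the small heat shock protein gene HSPB8 (0.45 ± 0.10, adjusted p 0.0151), whose call was lost without 4OHT replicates 1 or 2 or ICI replicate 3, which left 1 member called. DNAJB1, HSPB1 and HSP90AA1, which respond to heat shock factor in many cells, were at -0.02 (95% interval -0.12 to 0.08), 0 (-0.14 to 0.14) and 0 (-0.07 to 0.08). HSPA1A and HSPA1B were not tested as genes here.

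Further increases touched adhesion and the cell surface. The epithelial-mesenchymal transition factor SNAI2 was at 7.37, 6.86, 6.86 and 6.73 with 4OHT and 5.78, 6.08, 6.12 and 6.24 with ICI (0.90 ± 0.13, adjusted p 7.3e-05). The tight junction gene CLDN1 was higher by 0.89 ± 0.12 (adjusted p 4.32e-05), while another claudin gene, CLDN8, was lower by 0.44 on the log2 scale (-0.44 ± 0.10, adjusted p 0.00819). Of 12 measured YAP targets, 3 were called higher (1.25% of all genes called higher): FOSL1, the coagulation initiator F3 (0.57 ± 0.09, adjusted p 0.000122) and the receptor tyrosine kinase AXL (0.34 ± 0.07, adjusted p 0.00271), whose other probe set was at 0.06 (adjusted p 0.678). In the insulin-like growth factor axis, IGFBP1, a binding protein, was called at 0.66 ± 0.12 (adjusted p 0.00113), and it was the only one of 16 measured members over all arrays; IRS1 was called as well without ICI replicate 1 (0.24, adjusted p 0.0401).

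Decreases were smaller in size. TMEM100, a membrane protein linked to BMP signalling in endothelium, was at 5.90, 6.01, 5.89 and 5.76 with 4OHT and 6.90, 6.74, 6.51 and 6.69 with ICI (-0.82 ± 0.08, adjusted p 3.44e-07). TXNIP, an inhibitor of thioredoxin and of glucose uptake, was at 10.69, 10.65, 10.77 and 10.68 with 4OHT and 11.29, 11.30, 11.29 and 11.23 with ICI. Its difference of -0.58 ± 0.04 had the second smallest adjusted p of all genes (2.81e-10) and was the same without ICI replicate 1. FGFR2, a fibroblast growth factor receptor, was at 9.49, 9.43, 9.57 and 9.55 with 4OHT and 10.07, 10.03, 10.13 and 9.84 with ICI (-0.51 ± 0.05, adjusted p 1.17e-07). None of the 3 genes overlapped between the groups, and 4OHT lay below in this way for 4.35% of all genes. Of 9 further FGFR2 probe sets, 1 was called, at -0.34 ± 0.08 (adjusted p 0.0314), and the other 8 were not.

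CSF2RB, the shared beta chain of the GM-CSF and interleukin receptors, was lower at -0.60 ± 0.09 (adjusted p 0.000208). The transcriptional repressor BCL6 was at 11.13, 11.23, 11.30 and 11.24 with 4OHT and 11.85, 11.54, 11.68 and 11.58 with ICI (-0.44 ± 0.07, adjusted p 0.000372). Another BCL6 probe set was at 0.23 ± 0.27 (adjusted p 0.72). BMP4, a bone morphogenetic protein, was at 10.24, 10.23, 10.33 and 10.31 with 4OHT and 10.63, 10.75, 10.55 and 10.53 with ICI (-0.34 ± 0.06, adjusted p 0.000993). It was the only called gene among 15 members of the BMP, SMAD inhibitor and ID list (1.08% of all genes called lower). GAS1, a growth arrest gene, and HOXC6, a homeobox factor, were each at -0.44 ± 0.09 (adjusted p 0.00819 and 0.00603), while a second GAS1 probe set was at -0.02 ± 0.11 (adjusted p 0.956). The Wnt receptor FZD2 (-0.45 ± 0.11, adjusted p 0.0223) and AHDC1 (-0.43 ± 0.11, adjusted p 0.0326) both lost their calls without ICI replicate 1, at -0.32 (adjusted p 0.12) and -0.31 (adjusted p 0.172). FZD2 also lost it without 4OHT replicates 1, 2 or 4, and AHDC1 without any single 4OHT array.

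The aryl hydrocarbon receptor induces the CYP1 monooxygenases. CYP1A1 was at 7.76, 7.94, 7.89 and 7.88 with 4OHT and 8.62, 8.30, 8.23 and 8.22 with ICI (-0.47 ± 0.08, adjusted p 0.00111), with ICI replicate 1 as the highest array and a difference of -0.38 without it. CYP1B1 was at 10.65, 10.78, 10.83 and 10.74 with 4OHT and 11.14, 11.16, 11.22 and 11.08 with ICI (-0.40 ± 0.07, adjusted p 0.000358). The groups did not overlap for either gene, and 4OHT lay below in this way for 4.35% of all genes. They were the 2 genes called among 8 measured list members (1.08% of all genes called lower), and the remaining members, such as TIPARP (0.13) and NQO1 (0), did not pass the test. Of 3 other CYP1B1 probe sets, 2 were called lower and the third was at 0.13 ± 0.10 (adjusted p 0.538).

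The receptor that both drugs bind was itself lower in transcript with 4OHT. ESR1 was at 11.50, 11.38, 11.48 and 11.41 with 4OHT and 11.88, 11.69, 11.77 and 11.64 with ICI. The groups did not overlap (4OHT lay below in this way for 4.35% of all genes), and the difference was 1.23-fold (-0.30 ± 0.06, 95% interval -0.42 to -0.19, adjusted p 0.00179). Without ICI replicate 1 it was -0.26 (adjusted p 0.0114). None of 8 other ESR1 probe sets was called, at -0.11 to 0.15. Among 20 measured steroid receptors and coregulators, the coactivator NCOA2 was the other called gene (-0.27 ± 0.07, adjusted p 0.0382), and it lost its call without ICI replicates 1 (-0.26) or 4 or any single 4OHT array. Over all genes, 1.08% were called lower.

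GREB1, PGR, IGFBP3, TFF1 and CCND1, estrogen-regulated genes in many cells, did not pass the test between the drugs, unlike MYC. GREB1, a receptor cofactor, was at 8.64, 8.38, 8.35 and 8.31 with 4OHT, at 8.59, 8.11, 8.49 and 8.86 with ICI and at 8.64, 8.40, 8.34 and 8.65 with vehicle. The 3 groups overlapped, and the difference of 4OHT against ICI was -0.09 ± 0.13 with a 95% interval of -0.35 to 0.17 (adjusted p 0.772). The progesterone receptor gene PGR differed by 0.05 (95% interval -0.11 to 0.21, adjusted p 0.78) at a level of 3.8, low on the scale of the array. IGFBP3 differed by 0.02 (-0.12 to 0.17, adjusted p 0.9), TFF1 by -0.05 (adjusted p 0.803) and CCND1 by 0.05 (adjusted p 0.72). These intervals bound the difference and do not show that the drugs act alike on these genes.

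Of 42 measured genes of the estrogen-induced list, 8 were called higher with 4OHT and 1 lower (1.25% and 1.08% of all genes), with a median of 0.05. This list was chosen in part from the E2 response of the same series and is not independent evidence of a direction. The 8 were MYC, FOS, EGR3, KLF4, RASGRP1, OTUB2, OSBPL3 and HSPB8, the first 4 of which are also on the immediate early list. RASGRP1, an activator of RAS, was at 9.16, 8.96, 8.95 and 8.98 with 4OHT, 8.92, 8.54, 8.49 and 8.52 with ICI and 8.06, 8.02, 8.11 and 8.23 with vehicle. Its difference was 0.39 ± 0.09 (adjusted p 0.0089), and without 4OHT replicate 1 it was no longer called (adjusted p 0.054). The gene called lower was PDZK1, a scaffold protein (-0.31 ± 0.05, adjusted p 0.000208). Without 4OHT replicate 1 the list held 4 genes called higher. In the estrogen-repressed list 1 of 20 members was called higher and 3 lower, with 0 to 2 higher and 2 to 4 lower when single arrays were left out. Those lower were GAS1, PCDH9 and the cyclin gene CCNG2 (-0.36 ± 0.07, adjusted p 0.00384). The 2 other CCNG2 probe sets were at -0.08 and 0.62 and were not called. PCDH9 (-0.33 ± 0.08) lost its call without ICI replicate 1 (-0.31) or 4OHT replicates 1 or 2, and its other probe set was at 0.04.

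Proliferation and metabolic lists held few calls at 3 h. Over all genes, 1.25% were called higher and 1.08% lower. None of the 21 G1/S and DNA replication genes was called, and none of the 15 interferon-stimulated or 8 histone genes. Of 21 mitosis genes, 3 were called lower, AURKA (-0.27 ± 0.07), DLGAP5 (-0.18 ± 0.05) and NDC80 (-0.20 ± 0.05), with a list median of -0.09. That count was 0 without ICI replicate 1 or 4OHT replicate 2, 1 without 4OHT replicates 1 or 4 and 5 without ICI replicate 2. The 3 genes were at -0.18, -0.15 and -0.17 without ICI replicate 1, and the median of the list was then -0.13. Cholesterol biosynthesis gave 0 calls among 20 measured genes over all arrays, with SQLE at 0.22 (adjusted p 0.0577) and INSIG1 at 0.27 (adjusted p 0.129). Without ICI replicate 2 the count was 2 higher and without ICI replicate 4 it was 1 higher. Without ICI replicate 1 the sterol exporter ABCA1 was called lower (-0.32, adjusted p 0.0365). GCLC, the catalytic subunit of glutathione synthesis, was the only NRF2 list member called (0.30 ± 0.06, adjusted p 0.00351), and without ICI replicate 4 the list had 2 higher and 1 lower.

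Stress, Wnt, glucose uptake, lysosome and ribosome lists held 2 or 3 called genes each, while 1.25% of all genes were called higher and 1.08% lower. Of 24 unfolded protein and integrated stress response genes, ATF3 and the phosphatase subunit PPP1R15A (0.38 ± 0.08, adjusted p 0.00544) were called higher and the mTOR inhibitor DDIT4 lower (-0.28 ± 0.06, adjusted p 0.0134). DDIT4 lost its call without ICI replicate 1 (-0.25) or 4OHT replicate 1. Of 15 Wnt genes, the antagonist DKK1 (0.38 ± 0.09) and the receptor FZD5 (0.20 ± 0.04) were called higher and FZD2 lower; 2 were lower without ICI replicate 2 and 3 without ICI replicate 4. DKK1, which was also the one estrogen-repressed gene called higher, lost its call without 4OHT replicates 1 or 2 or ICI replicate 3. Among 14 hypoxia and glucose uptake genes, TXNIP and the glucose transporter gene SLC2A3 (-0.28 ± 0.07, adjusted p 0.0208) were called lower, the latter not without ICI replicates 1 (-0.27) or 3 or 4OHT replicates 2 or 4. The lysosomal cholesterol transporter NPC1 (0.26 ± 0.06) and the autophagy receptor SQSTM1 (0.16 ± 0.04) were called among 19 lysosome genes, and 1 of them remained without 4OHT replicates 1 or 2 or ICI replicates 1 or 3; NPC1 was at 0.22 without ICI replicate 1. Of 15 ribosome biogenesis and MYC target genes, RRP12 and the polyamine enzyme gene ODC1 were called, at 0.26 ± 0.07 and 0.19 ± 0.05. ODC1 lost its call without any single array of the 8 (0.20 without ICI replicate 1), RRP12 without any single 4OHT array or ICI replicate 3, and no member was called without the latter 5. None of 13 circadian clock genes was called over all arrays, while 1 was called higher without ICI replicate 1 and 1 lower without ICI replicates 2 or 3. Of the genes in this paragraph, other probe sets of FZD5 (0 ± 0.07), SQSTM1 (0.05 ± 0.05) and SLC2A3 (-0.03 ± 0.13) were not called. A further SLC2A3 probe set was called at -0.64 ± 0.12.

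**Figure D3:**
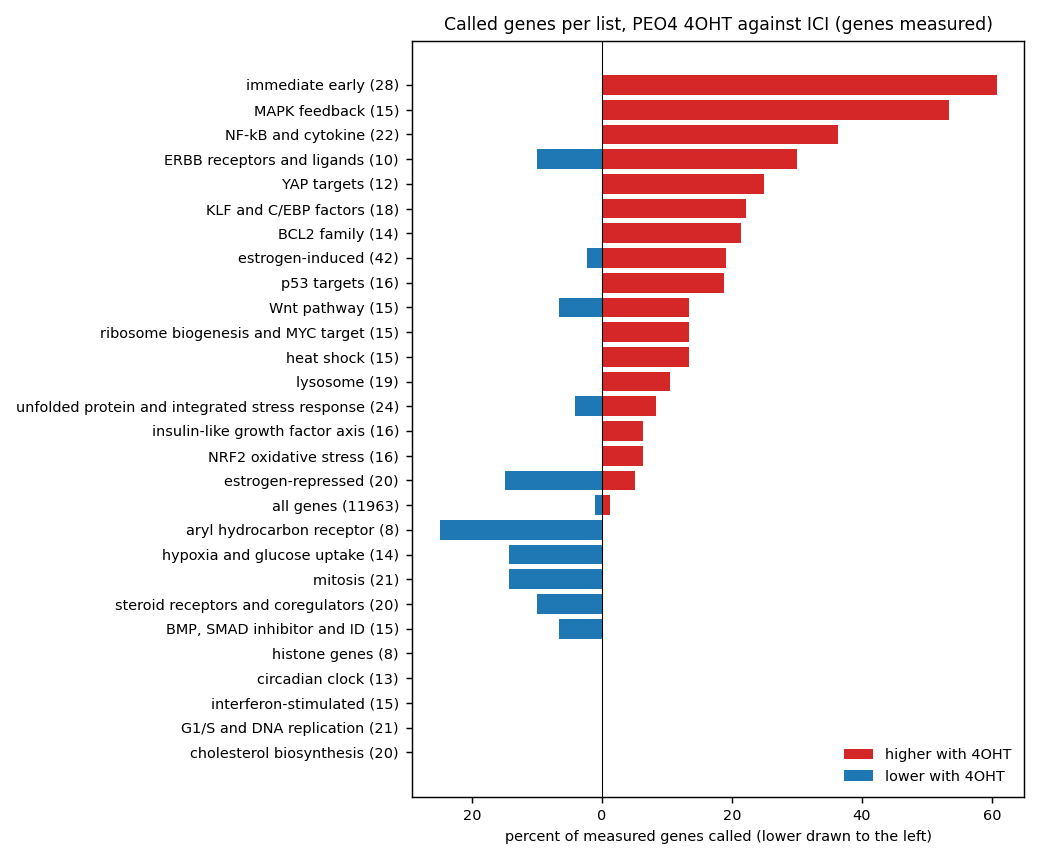
Percent of the measured genes of each of 27 lists that were called higher with 4OHT (red, to the right) or lower (blue, to the left) in PEO4, with the number of measured genes in brackets and all 11963 genes as a row of their own. The immediate early, MAPK feedback and NF-kB lists have 17 of 28, 8 of 15 and 8 of 22 genes called higher and none lower.

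Levels with each drug were also set against vehicle. The same 4 vehicle arrays serve both drugs, and the 4OHT and ICI arrays are those already compared, so these values are a description of the same data. Against vehicle, 661 genes were called with 4OHT (5.53%), of which 332 were higher (2.78%) and 329 lower (2.75%). With ICI 19 were called (0.159%), 11 higher (0.092%) and 8 lower (0.0669%), and 6 without ICI replicate 1. The count for ICI was 847 without ICI replicate 4, 31 without vehicle replicate 1, 1 without vehicle replicate 2, 11 without vehicle replicate 3, 7 without vehicle replicate 4 and 10 and 8 without ICI replicates 2 and 3. That for 4OHT was 418 without vehicle replicate 2.

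All 15 of the largest increases were called higher with 4OHT against vehicle, at 0.57 to 1.94, and none was called with ICI, at -0.32 to 0.26. FOSB was at 1.94 with 4OHT and 0.26 with ICI, DUSP4 at 1.35 and 0.00, and HSPA6 at 1.67 and 0.15. For FOS the values were 0.64 and -0.30, and for CXCL2 0.59 and -0.27, and neither ICI value passed the test (adjusted p 0.167 for FOS and 0.244 for CXCL2). Of the 15 largest decreases, 13 were called lower with 4OHT and none was called with ICI. TMEM100 was at -0.78 with 4OHT and 0.04 with ICI. TXNIP was at -0.44 and 0.14, and FGFR2 at -0.32 and 0.19. ESR1 was at -0.22 with 4OHT (adjusted p 0.0171) and 0.08 with ICI (adjusted p 0.459). RASGRP1 was higher with both drugs, at 0.91 with 4OHT (adjusted p 6.22e-08) and 0.52 with ICI (adjusted p 0.00882).

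**Figure D4:**
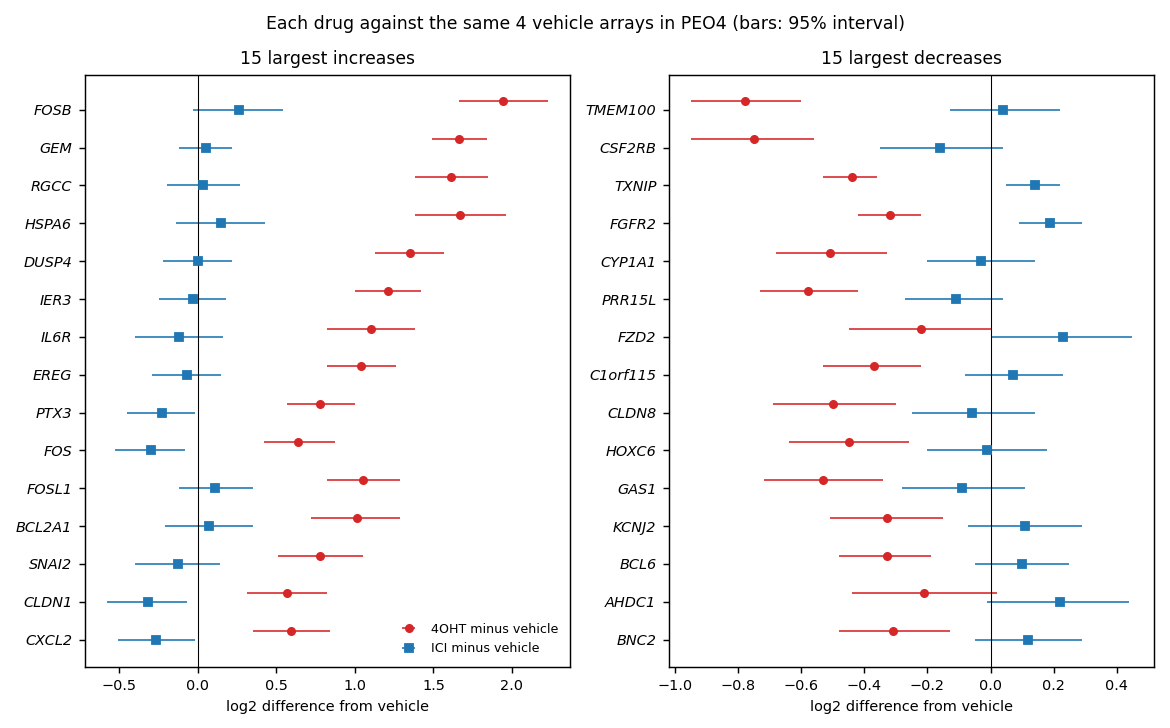
Log2 difference from the same 4 vehicle arrays with 4OHT (red circles) and ICI (blue squares) for the 15 largest increases (left) and decreases (right) of 4OHT against ICI; bars are 95% intervals. In the left panel the 4OHT values lie between 0.57 and 1.94 and the ICI values between -0.32 and 0.26, and in the right panel between -0.78 and -0.21 and between -0.16 and 0.23.

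The drug contrast was measured again on 8 PEO4 arrays that had received E2 together with the drug. There 532 genes were called (4.45%), 360 higher (3.01%) and 172 lower (1.44%). The count was 343 without the ICI with E2 replicate 3 and 1031 without 0 h replicate 4 and ICI replicate 1 together. RNA quality was uneven here too: the ACTB 3′ minus 5′ difference was 1.07 and 1.74 on replicates 3 and 4 of 4OHT with E2. On the ICI with E2 arrays it was 0.48 to 0.79. Of the 150 genes called higher without E2, 108 were called higher with it (72% of the 150 and 30% of the 360). For the genes called lower, 40 were shared (31% of the 129 and 23.3% of the 172), and no gene was called in opposite directions. The difference was above 0 with E2 for 139 of the 150, with a median of 0.40, and below 0 for 120 of the 129, with a median of -0.16.

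Immediate early genes were called higher for 22 of 28 members with E2, MAPK feedback genes for 9 of 15 and NF-kB targets and cytokines for 12 of 22, against 3.01% of all genes. FOSB was at 1.95 ± 0.14 (adjusted p 1.93e-10), RGCC at 1.88 ± 0.11, NR4A3 at 1.92 ± 0.15, DUSP4 at 1.68 ± 0.11 and IER3 at 1.65 ± 0.10. Of the 15 largest increases without E2, 14 were called with it, and CLDN1 was at 0.41 (adjusted p 0.0551). Of the 15 largest decreases 9 were called, among them TMEM100 (-0.73 ± 0.08, adjusted p 1.14e-06) and TXNIP (-0.56 ± 0.04, adjusted p 2.38e-10). Mitosis genes were called lower for 9 of 21 members with E2 (1.44% of all genes), with a median of -0.19. ESR1 was at -0.13 (adjusted p 0.217).

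The difference between the drug contrasts with and without E2 was itself tested. A single gene, CALCB, which encodes a calcitonin gene-related peptide, was called (0.00836% of genes): it was higher with 4OHT by 0.42 ± 0.10 without E2 and by 1.20 ± 0.10 with it, a difference of 0.78 ± 0.14 (adjusted p 0.0471). With the replicate number as a block, 0 genes were called, with 1683 at an unadjusted p under 0.05 in limma. Without ICI replicate 1 CALCB was at adjusted p 0.0508 and limma called 0 genes, with 920 at an unadjusted p under 0.05. Without ICI replicate 4 the count was 64, without 4OHT replicate 1 it was 2, and without replicates 1 or 4 of 4OHT with E2 it was 3 each; it was 0 without any other single array of the 4 groups. The CALCB difference in the contrast without E2 lay between 0.33 and 0.49 with single arrays left out. Its call in that contrast was lost without ICI replicate 1 or 4OHT replicate 1. For ESR1 the tested difference between the contrasts was 0.17 (adjusted p 0.342).

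PEO1 shares no array with PEO4, and in it 4OHT against ICI gave 448 called genes (3.74%), 202 higher (1.69%) and 246 lower (2.06%). Quantile normalization turned that balance to 234 higher against 170 lower. Leaving out single arrays gave 220 genes without ICI replicate A, 288 without ICI replicate C, 280 without 4OHT replicate B and 258 without 4OHT replicate C. Of the genes called higher in PEO4, 56 were called higher in PEO1 (37.3% of 150 and 27.7% of 202), and of those called lower, 31 (24% of 129 and 12.6% of 246). The difference in PEO1 was above 0 for 127 of the 150, with a median of 0.15, and below 0 for 109 of the 129, with a median of -0.11. In opposite directions, 2 genes were called lower in PEO4 and higher in PEO1, one of them the EGR corepressor NAB1, at -0.33 in PEO4 and 0.22 in PEO1.

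Of the 15 largest increases in PEO4, 13 were called higher in PEO1. HSPA6 was at 1.78 ± 0.18 there (adjusted p 8.73e-07), FOSB at 1.48 ± 0.21 (adjusted p 8.81e-05), EREG at 0.96 ± 0.10 and CXCL2 at 0.97 ± 0.11. The immediate early list had 16 of 28 genes called higher in PEO1, and NF-kB targets and cytokines 12 of 22, against 1.69% of all genes. Among the decreases, TMEM100 was at -0.52 ± 0.12 (adjusted p 0.0137), TXNIP at -0.30 ± 0.05 and GAS1 at -0.50 ± 0.07, and 6 of the 15 were called. ESR1 was at -0.05 (adjusted p 0.411).

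Whether the drug contrast itself differed between PEO4 and PEO1 was tested over the arrays of both lines, and 53 genes passed (0.443%), 33 of them with a larger value in PEO4 (0.276%) and 20 with a smaller one (0.167%). The count was 40 without ICI replicate 1 of PEO4, 24 without 4OHT replicate 1, 97 without ICI replicate 2, and 33 without ICI replicate D of PEO1. RGCC was at 1.58 in PEO4 and 0.40 in PEO1 (difference 1.18 ± 0.17, adjusted p 3.72e-05). DUSP4 was at 1.36 and 0.47 (0.89 ± 0.13, adjusted p 3.72e-05), and GEM at 1.61 and 0.78 (0.84 ± 0.12, adjusted p 3.72e-05). IER3 (0.62 ± 0.14, adjusted p 0.0259), SNAI2 (0.63 ± 0.16, adjusted p 0.0488) and DUSP6 (0.40 ± 0.09, adjusted p 0.0196) also had the larger value in PEO4. TXNIP fell further in PEO4 (difference -0.28 ± 0.06, adjusted p 0.0241), as did C1orf115 (-0.42 ± 0.09, adjusted p 0.0197). NAB1, called in opposite directions, had the smaller value in PEO4 (-0.55 ± 0.08, adjusted p 3.72e-05). For ESR1 the difference between the lines was -0.25 ± 0.06 (adjusted p 0.0657).

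**Figure D5:**
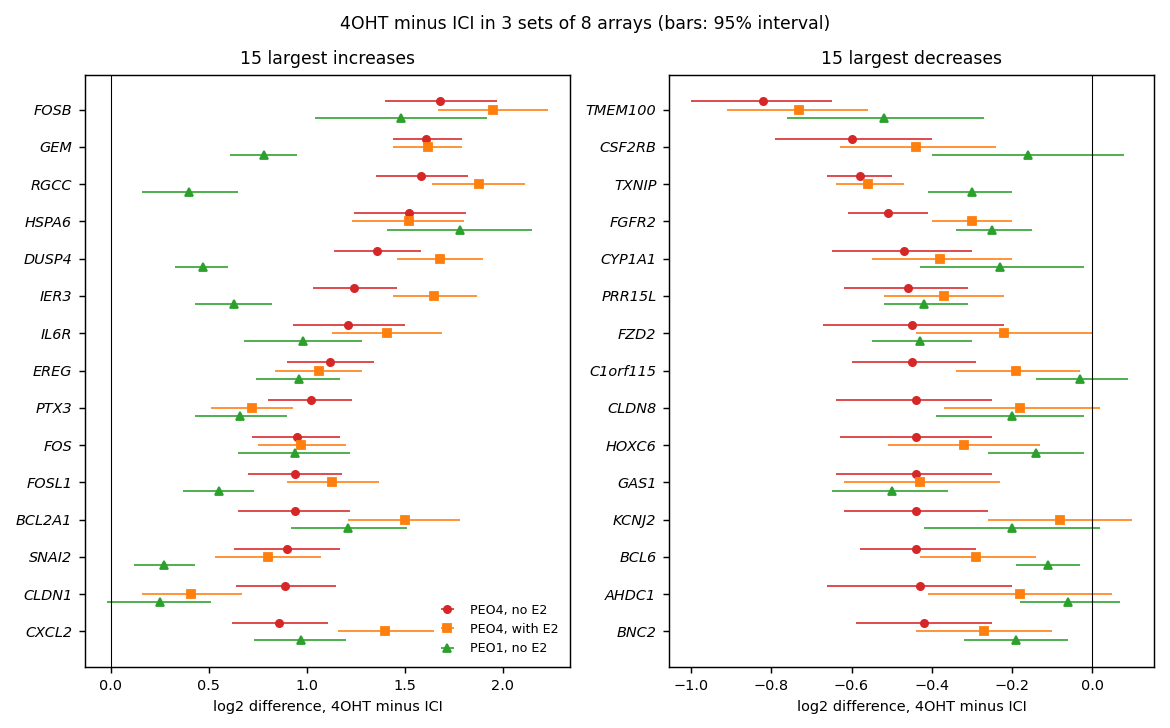
Log2 difference of 4OHT minus ICI in PEO4 without E2 (red circles), in PEO4 with E2 (orange squares) and in PEO1 without E2 (green triangles), for the 15 largest increases (left) and decreases (right) in PEO4 without E2; bars are 95% intervals and each set is 8 arrays. The genes were chosen on the red values. RGCC, DUSP4 and GEM lie lower in PEO1 (0.40, 0.47 and 0.78) than in either PEO4 set, while HSPA6 lies between 1.52 and 1.78 in all 3.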

How the data were processed

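RNA of the PEO1 and PEO4 lines was measured on 56 Affymetrix arrays, 28 per line in 7 groups of 4. The values are log2 expression values that the authors deposited, made with RMA per the submitters' processing notes, whose version is not given in the sources used here. These values lie between 2.178 and 14.331 and hold no detection calls. Array medians were 7.409 to 7.49 in PEO1 and 7.851 to 7.916 in PEO4, so levels were not compared between lines.

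Of 22277 probe sets, 62 controls were used as checks only. Gene symbols were read from the annotation of the platform: 19064 probe sets had 1 symbol, 1043 several and 2108 none, and 19052 were matched to RefSeq. For the 4310 genes with more than 1 probe set, the one with the highest mean was kept, which left 11963 genes. Among the called genes named by the rule below, 63 other probe sets of 32 genes were checked: 14 were called the same way, 0 the opposite way and 49 were not called. The text gives their values for some of these genes only.

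The 28 arrays of a line entered 1 linear model (limma 3.58.1, R 4.3.3) that gave each group its own mean and left 21 residual degrees of freedom; differences between lines used all 56 arrays. A gene was called at an adjusted p under 0.05 (Benjamini-Hochberg), and all adjusted p-values are from limma. The median standard error was 0.071 in PEO4 and 0.063 in PEO1. The fit was also run on simulated PEO4 values with known changes. Their noise was independent, with the same spread for a gene on every array. That run therefore does not bear on arrays of poor quality, unequal spread or pairing. The number of arrays limits the precision.

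Same-numbered PEO4 arrays with 4OHT and ICI did not deviate together (correlations 0.02, 0.07, 0.03 and -0.36), nor did those of PEO1 (0.04, 0.13, -0.09 and 0.21). With E2 the correlations were 0.33, 0.13, 0.3 and 0.12, and each 4OHT array matched best the ICI array of its own number. The labels do not state a pairing. The values reported are from the model without this pairing, and the fit with a replicate block is an alternative.

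The genes named are the 15 called genes with the largest difference in each direction, up to 4 of each of 27 lists by adjusted p, 6 fixed genes, and the 5 largest in each direction of the other comparisons; list members beyond these are named to show a list's range. The comparison and the lists were chosen with earlier results of these data known. Alternatives covered the variance model, dim genes, all probe sets, quantile normalization, array weights, the fitted groups, ACTB as a covariate, a replicate block and each array left out. Promoter sequences are RefSeq's, of GRCh38.p14.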

Additional observations from a re-analysis of the deposited data

Results flagged for a closer look

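Groups of 4 arrays were screened for single arrays far from the other 3; 76 groups were screened, 7 were found, and chance gives about 3.8. ICI replicate 1 gave 4 of the 7. It was the highest ICI array for AHDC1 (9.16, others 8.62 to 8.71), for RASGRP1 (8.92, others 8.49 to 8.54) and for the 3′ minus 5′ difference of ACTB (3.41, others 0.52 to 0.92) and GAPDH (1.74, others 0.06 to 0.07). Among the 4OHT arrays, replicate 1 was the highest for MYC (11.8, others 11.7 to 11.71) and for RASGRP1 (9.16, others 8.95 to 8.98), and replicate 4 the lowest for PRR15L (7.15, others 7.3 to 7.33).

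The difference of 4OHT against ICI differed between PEO4 and PEO1 for 53 genes by a test of that difference in limma. Among the genes with the largest differences in PEO4 these were RGCC (1.18), DUSP4 (0.89), GEM (0.84), SNAI2 (0.63), IER3 (0.62), TXNIP (-0.28) and C1orf115 (-0.42). Within PEO4, CALCB was the 1 gene called for a difference between the contrasts with and without E2 (0.78, limma adjusted p 0.0471). No gene was called without ICI replicate 1, with the replicate block, with the ACTB covariate or after quantile normalization, among other settings.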

How the results depend on the processing

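No named gene that was called in either setting changed sign under the alternatives run. The count for PEO4 4OHT against ICI, 279 genes, became 2367 with array weights and 82 with the 2 compared groups fitted alone, and 163 to 552 with 1 array left out. With E2 (532) it was 1383 with array weights, 845 with ACTB as a covariate, 1031 without the 0 h replicate 4 and ICI replicate 1 together, and 343 to 586 with 1 array left out. The difference with and without E2 (1 gene) was 381 with array weights and 0 without dim genes, over all probe sets, after quantile normalization, with the replicate block, in the compared groups alone, with the ACTB covariate and without the 0 h replicate 4 and ICI replicate 1 together (limma; 812 to 2699 genes at an unadjusted p under 0.05), and 0 to 64 with 1 array left out. PEO1 (448) gave 107 in the compared groups alone and 220 to 608 with 1 array left out. The difference between lines (53) gave 823 with array weights, 9 in the compared groups alone and 24 to 97 with 1 array left out. For 4OHT against vehicle (661) the counts were 1977 with array weights, 1033 in the compared groups alone, 1213 with the ACTB covariate, 1055 without the 0 h replicate 4 and ICI replicate 1 together, and 418 to 582 with 1 array left out. For ICI against vehicle (19) they were 1 without dim genes, 8 over all probe sets, 46 with the replicate block, 2150 with array weights, 0 in the compared groups alone (limma; 1264 at an unadjusted p under 0.05), 9 without the 0 h replicate 4 and ICI replicate 1 together, and 1 to 847 with 1 array left out. The mean ACTB 3′ minus 5′ difference (-0.84) was -1.13 to -0.16 with 1 array left out, and GAPDH in its place gave -0.41. The cause of these changes was not tested.

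With the replicate block, 298 genes were called for PEO4 4OHT against ICI and 555 with E2. Of 122 named genes 72 were called; 69 of the 72 kept their call with the block, 64 with the ACTB covariate, 57 without ICI replicate 1 and 40 with the compared groups alone. The median over all genes was -0.028 as deposited and -0.011 after quantile normalization.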
